A study of Mus musculus with 6 samples.

Results

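The DNA replication machinery of mouse Th17 cells was followed through 41 genes, chosen by name for their parts in origin licensing, helicase activation, DNA synthesis, the sliding clamp, single-strand binding and the supply of DNA building blocks. All 41 were present among the 31017 genes of the count table, and all 41 passed the filter on low counts that left 14268 genes for testing. The study sequenced RNA of Th17 cells, the interleukin 17-producing helper T cells, after differentiation in culture. It has 3 libraries from control cells (genotype WT) and 3 from cells with a knockout of RTF1 (genotype KO). RTF1 is a nuclear protein that travels with RNA polymerase II and promotes the ubiquitination of histone H2B, and the study asked what its loss does to these cells. The labels name no allele, no driver of the deletion and no age, and do not say whether replicates were separate mice or cultures, so that p-values measure only the spread between these libraries.

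Total counts ran from 16489813 to 51271226 per library. Levels are given as CPM, the reads of a gene for a fixed number of reads in the library, scaled with TMM factors that correct for library composition. Rtf1 itself was checked first. It stood at 94.0, 91.2 and 88.3 CPM in control replicates 1, 2 and 3 and at 45.3, 30.4 and 26.2 CPM in KO replicates 1, 2 and 3, a fall by 1.42 on the log2 scale (SE 0.191, edgeR adjusted p = 0.000755), so the KO libraries retained 37.2% of the control level. Of the T cell and Th17 markers, Cd3e, a chain of the T cell receptor complex, stood at 179.7 to 209 CPM in control and 289 to 347 CPM in KO. Cd4, the helper T cell co-receptor, stood at 443 to 539 CPM in control and 218 to 290.3 CPM in KO, and Il17f, a cytokine of Th17 cells, at 938 to 1538 CPM in control and 329 to 817 CPM in KO. Markers of other cells were low: summed over 5 genes each, B cell markers gave 1.24 to 3.09 CPM, and myeloid markers, led by Csf1r, Lyz2 and Cd14, gave 0.784 to 0.790 CPM in control and 1.84 to 3.61 CPM in KO. Markers of CD8 and NK cells gave 5.39 to 10.5 CPM, mainly from Cd8b1, and Ncr1 and Klrb1c had no count in any library. The part of these cells in the results was not tested.

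A cell copies its genome once per division. The origin recognition complex, with CDC6 and CDT1, loads the ring-shaped MCM2-7 helicase onto DNA before S phase. CDC45 and the GINS complex then switch the helicase on, polymerase alpha with its primase starts each strand, polymerases delta and epsilon extend it, and RFC loads the PCNA clamp that holds them in place. Activated T cells divide quickly, and many of these genes are transcribed in waves under the control of E2F factors.

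Transcripts of the 41 chosen replication genes were lower in KO almost without exception. This holds for these genes only: of 48 further replication genes, described below, 32 were called lower and 3 higher. With a gene counted as called at an edgeR adjusted p under 0.05, 39 of the 41 genes fell and none rose. Over all tested genes, 22.9% were called lower and 23.2% were called higher. The fitted log2 fold change was negative for all 41 genes and had a median of −1.22, equal to 42.8% of the control level, while the median of all tested genes was 0.013. At least a 2-fold fall was found for 28 of the 41 genes, against 11.0% of all tested genes. With all 41 fold changes negative in edgeR, no gene could be called higher there at any threshold. DESeq2 likewise called 39 genes lower and 0 higher. In bulk RNA, fewer dividing cells and less of each transcript per cell cannot be told apart.

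**Figure D1:**
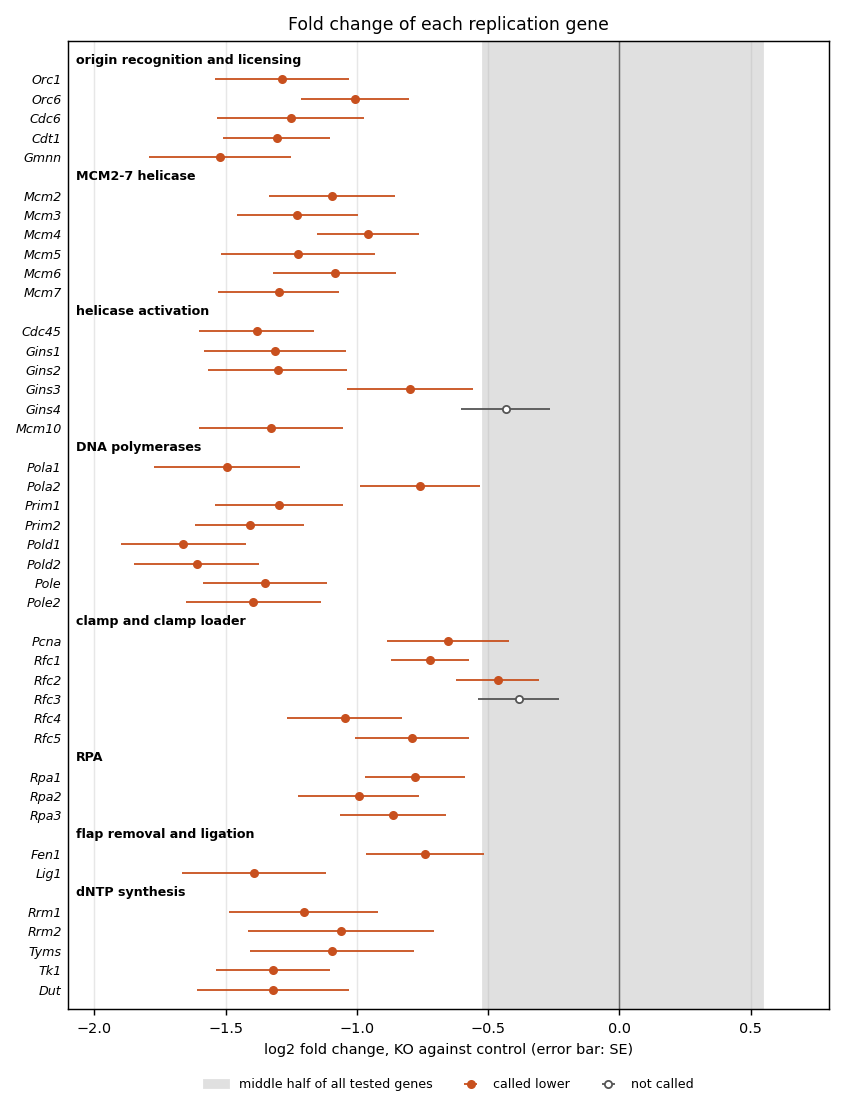
Log2 fold change of each of the 41 replication genes (x axis, KO against control, error bar SE, 3 libraries per group), grouped by role on the y axis. Filled points were called lower and open points were not called, and the grey band spans the lower to the upper quartile of all 14268 tested genes (−0.52 to 0.55). All points lie left of 0, and those not called are Gins4 and Rfc3.

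The libraries within each group differed, and most of the replication genes followed these differences together. Exceptions were found in KO, such as Rfc3, which was highest in replicate 3 among the KO libraries. The median deviation of the 41 genes from their control mean, in log2 CPM, was 0.080 in control replicate 1, 0.33 in control replicate 2 and −0.41 in control replicate 3. It was −0.76 in KO replicate 1, −1.35 in KO replicate 2 and −1.52 in KO replicate 3. Control replicate 3 was the lowest control library for all 41 genes, and control replicate 2 was the highest of all libraries for 39 of them. KO replicate 3 was the lowest of all libraries for 36 genes and KO replicate 2 for the other 5. For 34 genes every KO library lay below every control library, which was the case for 28.0% of all tested genes. The 7 genes with overlapping groups were Pola2, Pcna, Rfc2, Rfc3, Fen1, Rrm2 and Tyms, and in each of them the overlap involved control replicate 3. KO replicate 1 reached or passed control replicate 3 in 6 of these genes, and KO replicate 3 passed it in 1, Rfc3. No KO library reached control replicate 1 or 2 for any of the 41 genes.

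Replicate 3 of both groups also carried counts of Y-linked genes (11376 in control and 5147 in KO over 4 genes), which numbered 1 to 3 in the other libraries. Xist, the transcript of the inactive X chromosome, had 5 and 1 counts in replicate 3 of control and KO and 14668 to 28176 in the others. Replicates 1 and 2 thus differed from replicate 3 in the sex of their source. The part of this difference in the low level of control replicate 3 was not tested. With replicates 1 and 2 of both groups alone, all 41 genes were called lower, with a median log2 fold change of −1.25. Leaving out control replicate 3 also left all 41 called (median −1.48). Leaving out control replicate 1, control replicate 2, KO replicate 2 or KO replicate 3 left 31 of the 41 called, with medians of −1.25, −1.02, −1.13 and −1.03. The 10 genes not called were the same in these 4 fits: Gins3, Gins4, Pola2, Pcna, Rfc2, Rfc3, Rfc5, Fen1, Rrm2 and Tyms.

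**Figure D2:**
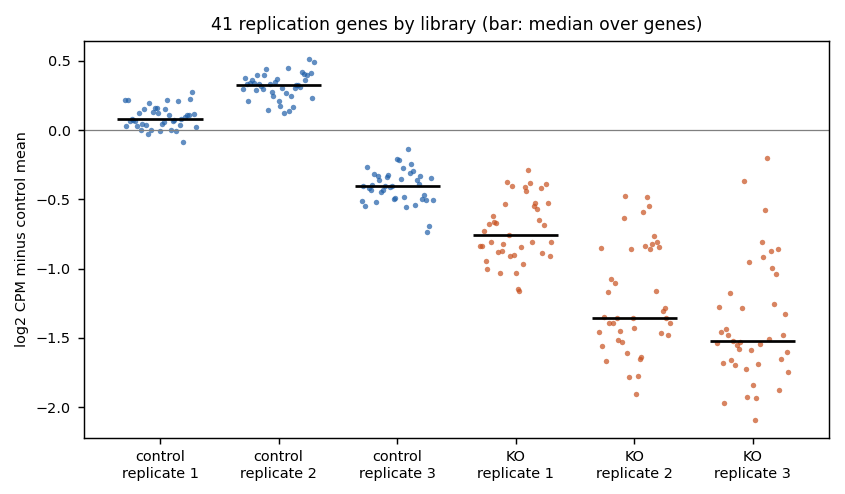
Deviation of each of the 41 replication genes from its own mean over the control libraries (y axis, log2 CPM), for each of the 6 libraries (x axis). Points are genes and the bar is their median, which runs from 0.33 in control replicate 2 down to −1.52 in KO replicate 3, and control replicate 3 (−0.41) lies nearest to KO replicate 1 (−0.76).

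All 5 genes of origin recognition and licensing fell by at least 1.01 on the log2 scale, with a median log2 fold change of −1.29. Orc1, the ATPase subunit of the origin recognition complex that comes and goes with the cell cycle, was measured at 68.7, 72.8 and 41.4 CPM in control and 33.1, 21.4 and 20.3 CPM in KO (replicates 1 to 3). Cdc6, which works with the origin complex to load the helicase, gave 73.3, 79.3 and 42.9 CPM in control and 37.9, 21.3 and 22.8 CPM in KO. In both genes control replicate 3 stood well below the other control libraries yet above every KO library. Orc1 fell by 1.29 (SE 0.255, edgeR adjusted p = 0.00396) and Cdc6 fell by 1.25 (SE 0.280, adjusted p = 0.0068). Orc6, the smallest subunit of the same complex, had the mildest fall of the 5 (log2 fold change −1.01, adjusted p = 0.00454).

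Cdt1, the loading factor, and Gmnn, which encodes geminin, the inhibitor that blocks CDT1 once S phase has begun, both fell. Cdt1 stood at 63.5, 70.0 and 50.3 CPM in control and 31.5, 23.8 and 18.9 CPM in KO, and Gmnn stood at 79.8, 95.3 and 56.5 CPM in control and 37.7, 23.7 and 19.2 CPM in KO. Neither gene had overlapping groups. Cdt1 fell by 1.31 (SE 0.204, adjusted p = 0.00142) and Gmnn by 1.52 (SE 0.269, adjusted p = 0.00242). The log2 ratio of Cdt1 to Gmnn was −0.31 ± 0.140 in control and −0.091 ± 0.143 in KO (n = 3, SD), and the libraries of the groups overlapped (exact permutation test without pairing, two-sided, p = 0.2). The ratio was higher in KO than in the control of the same number in all 3 pairs, from −0.33 to −0.26, from −0.44 to 0.0065 and from −0.17 to −0.023.

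The 6 genes of the MCM2-7 helicase, the ring that unwinds DNA ahead of the fork, all fell, and no group overlapped for any of them. Mcm3 gave 418, 506 and 304 CPM in control and 229, 153 and 143 CPM in KO. Mcm7 gave 233, 282 and 176 CPM in control and 123, 88.1 and 69.8 CPM in KO. Both show the common order of the libraries, with control replicate 2 highest and KO replicate 3 lowest. Mcm7 had the largest fall of the 6 (by 1.30, SE 0.231, adjusted p = 0.0025) and Mcm4 the smallest (by 0.96, SE 0.194, adjusted p = 0.00442). Mcm2 (−1.09), Mcm6 (−1.08), Mcm5 (−1.22) and Mcm3 (−1.23) lay between them as log2 fold changes. Mcm7 is less certain than the rest, because 18.1% of its 50-base stretches occur also in other transcripts, mainly of Gm5487.

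Ratios within the helicase were also compared. Across the 6 libraries the log2 ratio of Mcm4 to Mcm7 was 0.45, 0.43 and 0.50 in control and 0.72, 0.75 and 0.99 in KO. The ratio of Mcm6 to Mcm7 was 0.77, 0.83 and 0.84 in control and 1.02, 1.07 and 0.99 in KO. In both pairs every KO library lay above every control library. Of the 45 pairs of members that belong to one complex or act on each other, 18 had groups that did not overlap, in either direction. The share among pairs of other genes was not computed, so the count cannot be called high or low. Among the 14268 single tested genes, every KO library lay below every control library for 3997 and above for 4260. With 3 libraries against 3 the exact permutation test cannot give a p below 0.1, and adjusted over the 45 pairs the smallest value was 0.25, so that no single pair passed the threshold. The pairs described here were picked after their values were seen.

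Promoter sequences are shown for members of the helicase and of polymerase alpha, since the 41 genes moved together and E2F is the factor family best known for their control. RefSeq windows (build GRCm38.p6) were found by symbol for 33 of the 41 genes, and the 250 bases before each start were searched on both strands. The E2F motif was searched as TTTCCCGC, TTTCGCGC, TTTGCCGC or TTTGGCGC, the CCAAT box as CCAAT, and the cell cycle homology element as TTTGAA. The stretches below are the 170 bases before the start, read on the strand of the gene, with E2F matches on either strand in capitals. None of them overlaps an annotated exon.

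Mcm5 (chr8:75109339-75109508, plus strand): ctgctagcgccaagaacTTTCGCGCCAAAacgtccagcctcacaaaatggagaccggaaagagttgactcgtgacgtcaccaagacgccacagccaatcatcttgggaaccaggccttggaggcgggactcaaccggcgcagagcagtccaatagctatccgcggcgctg
Mcm6 (chr1:128359706-128359875, minus strand): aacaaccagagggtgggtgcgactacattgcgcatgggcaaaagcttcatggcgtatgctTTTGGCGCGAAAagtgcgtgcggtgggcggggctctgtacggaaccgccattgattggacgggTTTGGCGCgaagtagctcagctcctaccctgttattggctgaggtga
Pola1 (chrX:93632156-93632325, minus strand): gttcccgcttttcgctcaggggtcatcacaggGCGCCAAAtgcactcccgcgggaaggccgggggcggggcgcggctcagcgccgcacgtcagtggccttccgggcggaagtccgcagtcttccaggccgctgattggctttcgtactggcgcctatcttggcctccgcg
Mcm3 (chr1:20820313-20820482, minus strand): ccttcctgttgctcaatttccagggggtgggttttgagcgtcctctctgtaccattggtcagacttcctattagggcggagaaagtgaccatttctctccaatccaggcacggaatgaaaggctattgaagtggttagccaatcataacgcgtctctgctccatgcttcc

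The Mcm5 window holds 2 overlapping matches, 1 on each strand, the Mcm6 window 3, of which 2 overlap, and the Pola1 window 1. Mcm3 is shown beside them as a member without a match of these letters. It was picked with its log2 fold change known (−1.23, and −1.22 for Mcm5). An E2F match was present in 8 of the 33 genes with a window (24.2%), namely Cdc6, Gins3, Mcm5, Mcm6, Mcm7, Orc1, Pola1 and Rfc3, against 2.16% of the 27025 genes in the RefSeq table. That table is not limited to the genes tested here, and the share among tested genes was not computed. In the lists described further on, the share was 14.6% of the 41 further replication genes with a window. It was 5.9% of the 17 mitotic genes with a window and 33.3% (3 of 9) of the RNA polymerase II subunits. Called lower were 32 of the 48 listed further genes, all 20 listed mitotic genes and 1 of the 12 listed RNA polymerase II subunits. Over all tested genes the share called lower was 22.9%. The part of E2F factors in these changes was not tested. A CCAAT match was present in 21 of the 33 (63.6%, against 37.5% of all), and TTTGAA in 5 (15.2%, against 18.3% of all). Genes with an E2F match had a median log2 fold change of −1.24 and the 25 without one −1.09, while genes with a CCAAT match had −1.09 and the 12 without one −1.28. A match describes these letters in this window only, and neither binding nor its absence was measured.

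Of the 6 genes that switch the helicase on, 5 fell, and the median log2 fold change was −1.31. Cdc45, which joins the MCM ring and GINS to form the active helicase, gave 77.3, 85.8 and 51.1 CPM in control and 34.1, 24.3 and 23.8 CPM in KO. It fell by 1.38 (SE 0.219, adjusted p = 0.00153). Mcm10, an activator of the loaded helicase, gave 93.2, 103 and 64.0 CPM in control and 50.3, 27.8 and 25.7 CPM in KO, and fell by 1.33 (SE 0.274, adjusted p = 0.00481). Both were separated between the groups in all 6 libraries.

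The 4 subunits of GINS, which bind each other in equal numbers in the protein complex, were not all called. Gins1 gave 16.2, 20.7 and 11.7 CPM in control and 8.58, 5.74 and 5.24 CPM in KO, and Gins2 gave 33.7, 46.8 and 26.0 CPM in control and 19.4, 11.9 and 11.9 CPM in KO. Both fell, by 1.31 (SE 0.270, adjusted p = 0.0047) and 1.30 (SE 0.264, adjusted p = 0.0044). However, 67.3% of the exon bases of Gins2 lie opposite exons of the other strand, mainly of Gse1, and cannot be assigned without strand. Gins3 fell by 0.80 (SE 0.239, adjusted p = 0.024), but was no longer called in 4 of the 6 fits that each omitted a library. Gins4 gave 42.9, 54.0 and 34.3 CPM in control and 33.1, 30.8 and 33.2 CPM in KO. Its KO libraries were nearly level and lay just under control replicate 3, and it was not called (log2 fold change −0.43, SE 0.170, adjusted p = 0.0635). It was called with the replicate number as a block (adjusted p = 0.0472), and without control replicate 2 its log2 fold change shrank to −0.26.

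Ratios between the subunits were compared library by library. The log2 ratio of Gins1 to Gins4 was −1.40, −1.38 and −1.55 in control and −1.94, −2.41 and −2.65 in KO, and that of Gins2 to Gins4 was −0.34, −0.21 and −0.40 in control and −0.77, −1.37 and −1.48 in KO. The KO libraries lay below all control libraries in both pairs, by 0.89 on average in each (exact permutation test, p = 0.1, the smallest possible). The ratio of Gins1 to Gins2, in contrast, averaged −1.13 in both groups, with an SD of 0.061 over 3 control and 0.075 over 3 KO libraries.

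**Figure D3:**
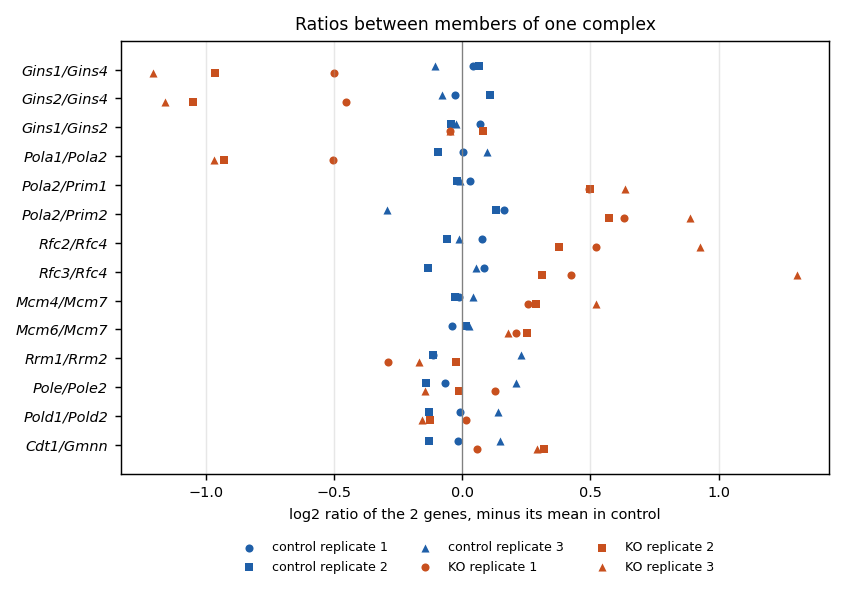
Log2 ratio between 2 members of one complex (rows, 14 pairs) in each of the 6 libraries, drawn relative to the mean of the pair over the control libraries (x axis, log2). The KO points of the pairs with Gins4, Pola2 or Rfc4 stand away from the control points, up to 0.89 on average for Gins1/Gins4, while those of Gins1/Gins2, Pole/Pole2 and Pold1/Pold2 lie near them.

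All 8 genes of the DNA polymerases fell, and their median log2 fold change of −1.40 was the lowest of the 8 roles. Pold1, the catalytic subunit of polymerase delta, which copies the lagging strand, gave 132, 144 and 109.9 CPM in control and 57.7, 34.1 and 29.9 CPM in KO. Pold2, its second subunit, gave 59.0, 69.8 and 44.3 CPM in control and 25.3, 16.5 and 14.8 CPM in KO. These were the 2 largest falls among the 41 genes, by 1.66 for Pold1 (SE 0.238, adjusted p = 0.000971) and 1.61 for Pold2 (SE 0.238, adjusted p = 0.00112), and Pold1 was left at 31.6% of its control level. Between Pold1 and Pold2 the log2 ratio was 1.17 ± 0.135 in control and 1.08 ± 0.092 in KO (exact permutation test, p = 0.6).

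Both listed genes of polymerase epsilon, which copies the leading strand, fell. Pole, its catalytic subunit, gave 149, 146 and 110.4 CPM in control and 74.6, 42.6 and 41.4 CPM in KO, and fell by 1.35 (SE 0.235, adjusted p = 0.00225). Pole2, the subunit that links the enzyme to the helicase, gave 25.7, 26.6 and 15.7 CPM in control and 11.2, 7.05 and 7.52 CPM in KO, and fell by 1.39 (SE 0.258, adjusted p = 0.00295). Between Pole and Pole2 the log2 ratio averaged 2.60 over the control libraries (SD 0.185) and 2.59 over the KO libraries (SD 0.136). Of Pole2, 8.2% of the 50-base stretches are shared, mainly with Gm49384.

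All 4 subunits of polymerase alpha-primase, which lays down the RNA-DNA primers, fell, and the groups overlapped in 1 of them. Pola1, the DNA polymerase, gave 148, 157 and 100.1 CPM in control and 70.5, 38.5 and 34.9 CPM in KO, and fell by 1.49 (SE 0.279, adjusted p = 0.00307). Prim2, the large primase subunit, gave 64.9, 75.3 and 56.3 CPM in control and 31.7, 24.1 and 18.1 CPM in KO, and fell by 1.41 (SE 0.207, adjusted p = 0.0011). Prim1, the catalytic primase subunit, fell by 1.30 (SE 0.244, adjusted p = 0.00319). These 3 genes had no overlap between the groups. Pola2, the regulatory B subunit, gave 79.1, 90.0 and 50.1 CPM in control and 53.6, 39.1 and 36.6 CPM in KO, so that KO replicate 1 passed control replicate 3. Pola2 fell by 0.76 (SE 0.228, adjusted p = 0.0239), and it missed the threshold in 4 of 6 such fits.

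Relative to Pola2, the other subunits of this complex were lower in every KO library than in any control library. The log2 ratio of Pola1 to Pola2 was 0.90, 0.81 and 1.0 in control and 0.40, −0.026 and −0.068 in KO. Pola2 to Prim1 gave 0.063, 0.010 and 0.024 in control and 0.53, 0.53 and 0.67 in KO, and Pola2 to Prim2 gave 0.29, 0.26 and −0.17 in control and 0.76, 0.70 and 1.01 in KO. In control libraries Pola2 and Prim1 were thus read at almost equal CPM, and in KO libraries Pola2 was read more often in all 3.

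**Figure D4:**
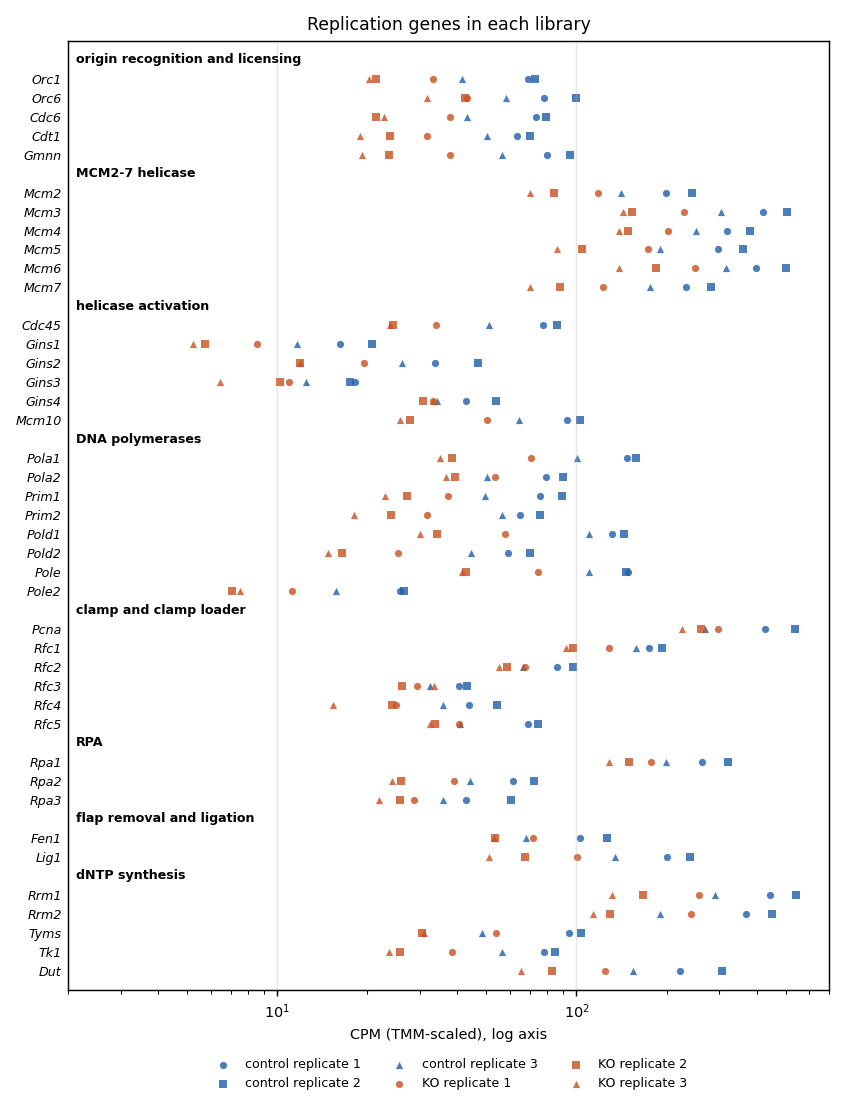
CPM of the 41 replication genes (x axis, log scale) in each of the 6 libraries, grouped by role on the y axis, with blue for control and orange for KO and the marker shape for the replicate number. Control replicate 3 (blue triangle) is the control point nearest to KO in all 41 genes, and in 7 genes, such as Pcna and Rrm2, the 2 groups overlap.

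Of the 6 genes of the clamp and its loader 5 fell, and their median log2 fold change of −0.69 was the nearest to 0 of the 8 roles. Pcna, the ring that tethers the polymerases to DNA, gave 425, 536 and 268 CPM in control and 296, 261 and 225 CPM in KO. KO replicate 1 lay above control replicate 3. Pcna fell by 0.65 (SE 0.234, adjusted p = 0.0468), the weakest call among the members. It missed the threshold in 5 of 6 fits that omitted a library and when only library size was scaled, and the log2 fold change was −0.42 without control replicate 2. Reads of Pcna are partly ambiguous: 19.1% of its 50-base stretches are found in other transcripts too, mainly Pcna-ps2.

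RFC opens the clamp with 1 large and 4 small subunits, of which 4 in all were called lower. Rfc1, the large subunit, gave 175, 192 and 159 CPM in control and 128, 97.7 and 92.5 CPM in KO, and fell by 0.72 (SE 0.149, adjusted p = 0.00482). Rfc4 gave 43.6, 54.2 and 35.8 CPM in control and 25.0, 24.1 and 15.4 CPM in KO, and fell by 1.05 (SE 0.219, adjusted p = 0.00513), the largest fall of the 5. Rfc5 fell by 0.79 (adjusted p = 0.0168) and Rfc2 by 0.46 (adjusted p = 0.0378), and both missed the threshold in 4 of 6 fits that omitted a library, Rfc2 also when only library size was scaled. Rfc3 gave 40.4, 43.1 and 32.4 CPM in control and 29.3, 26.2 and 33.4 CPM in KO. It was the second gene not called (log2 fold change −0.38, SE 0.155, adjusted p = 0.0699), and with the block its adjusted p was 0.0663.

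The ratios of Rfc4 to its partners were then compared. The log2 ratio of Rfc2 to Rfc4 was 0.98, 0.84 and 0.89 in control and 1.43, 1.28 and 1.83 in KO, and that of Rfc3 to Rfc4 was −0.11, −0.33 and −0.14 in control and 0.23, 0.12 and 1.11 in KO. In both pairs the groups did not overlap. KO replicate 3 stood far from the other KO libraries in the second pair, and without it the mean difference between the groups was 0.37 in place of 0.68.

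RPA coats the single strands that the helicase exposes, and all 3 of its subunits fell. Rpa1, the large subunit that holds most of the DNA contacts, gave 263, 321 and 199 CPM in control and 177, 150.2 and 128 CPM in KO, and fell by 0.78 (SE 0.191, adjusted p = 0.0101). Rpa2 gave 61.2, 71.8 and 44.1 CPM in control and 39.0, 25.8 and 24.1 CPM in KO, and fell by 0.99 (SE 0.230, adjusted p = 0.00793). Rpa3 gave 42.6, 60.3 and 35.9 CPM in control and 28.7, 25.7 and 22.0 CPM in KO, and fell by 0.86 (SE 0.203, adjusted p = 0.00857). All 3 genes kept their groups apart in every library. None reached a 2-fold fall, and Rpa3 shares 9.5% of its 50-base stretches, mainly with Gm6195.

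Both enzymes that join Okazaki fragments, the short pieces of the lagging strand, fell. Lig1, the ligase, gave 201, 239.8 and 134 CPM in control and 101, 67.5 and 50.8 CPM in KO, and fell by 1.39 (SE 0.274, adjusted p = 0.00386). Fen1, the nuclease that trims the flap ahead of ligation, gave 103, 127 and 68.0 CPM in control and 71.8, 53.4 and 52.8 CPM in KO. KO replicate 1 exceeded control replicate 3 for Fen1 but not for Lig1. Fen1 fell by 0.74 (SE 0.224, adjusted p = 0.0247), but was no longer called in 4 of the 6 fits that each omitted a library. Of its exon bases, 84.2% lie opposite exons of the other strand, mainly of Gm10143.

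All 5 genes of dNTP synthesis fell by more than 2-fold, with a median log2 fold change of −1.20. Rrm1, the large subunit of ribonucleotide reductase, gave 443, 543 and 291 CPM in control and 257, 166 and 131 CPM in KO, and fell by 1.20 (SE 0.283, adjusted p = 0.00861). Rrm2, the small subunit that limits the enzyme to S phase, gave 368, 451 and 190.0 CPM in control and 241, 129.8 and 113 CPM in KO. The coefficient of variation of Rrm2 was the largest of the 41 genes in both groups, 39.7% in control and 43.0% in KO. Rrm2 fell by 1.06 (SE 0.354, adjusted p = 0.0361), and KO replicate 1 passed control replicate 3. The log2 ratio of Rrm1 to Rrm2 was 0.38 ± 0.20 in control and 0.22 ± 0.133 in KO (n = 3, SD; exact permutation test, two-sided, p = 0.4).

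The 3 genes of the thymidylate branch also fell. Tyms, thymidylate synthase, gave 94.4, 104 and 48.3 CPM in control and 54.0, 30.5 and 31.0 CPM in KO, again with KO replicate 1 above control replicate 3, and fell by 1.09 (SE 0.312, adjusted p = 0.0195). Rrm2 and Tyms each missed the threshold in 4 of 6 fits that omitted a library. Tk1, the cytosolic thymidine kinase of dividing cells, gave 77.9, 84.6 and 56.5 CPM in control and 38.3, 25.8 and 23.7 CPM in KO, and fell by 1.32 (SE 0.217, adjusted p = 0.00177). Dut, which removes dUTP so that uracil is kept out of DNA, gave 221, 306 and 154 CPM in control and 125, 83.0 and 65.1 CPM in KO, and fell by 1.32 (SE 0.289, adjusted p = 0.00617). Tk1 and Dut had no overlap between the groups.

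Levels per length, as TPM (transcripts of a gene for a fixed number of transcripts) computed from the counts and the summed exon length of each gene in GENCODE release M21, spread widely within the machinery. In control the range ran from 18.2 ± 3.45 TPM for Gins3 to 519 ± 150 TPM for Pcna (SD, n = 3), and Rrm2 (369 ± 134 TPM) and Mcm3 (333 ± 68.6 TPM) came next. Within the helicase the control levels were 333 ± 68.6 TPM for Mcm3, 269 ± 43.7 for Mcm4, 264 ± 47.2 for Mcm6, 216 ± 57.2 for Mcm5, 159 ± 29.4 for Mcm7 and 85.0 ± 19.0 for Mcm2. Neighbours in this order differed by less than the larger of their SDs, except Mcm7 and Mcm2. These levels depend on the annotated exons, which exceed a single transcript where a gene has several. In KO, Pcna stood at 367 ± 48.2 TPM and Gins4 at 81.1 ± 2.87 TPM, against 98.7 ± 17.5 TPM for Gins4 in control. Over the 41 genes the control level and the log2 fold change had a weak relation (Pearson r = 0.04, Spearman rho = 0.13, given as a description across genes of the same libraries).

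The libraries with equal replicate numbers gave 3 separate readings of the change, each from its own 2 libraries. The labels do not say what the numbers mean, and the pairing of replicate 2 is uncertain. The median log2 difference over the 41 genes, KO minus control, was −0.81 in pair 1, −1.71 in pair 2 and −1.08 in pair 3. KO was the lower library for 41, 41 and 40 of the genes. Across the 41 genes the Pearson r of these differences was 0.81 between pairs 1 and 2, 0.82 between pairs 1 and 3, and 0.77 between pairs 2 and 3. These correlations are descriptions, since all genes of a pair share its libraries and their depth.

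Beyond the members, 48 further genes of DNA replication were listed, of which 32 were called lower and 3 higher, with a median log2 fold change of −0.83. Over all tested genes, 22.9% were called lower and 23.2% higher, with a median of 0.013. Of the 8 subunits that complete the complexes above, 4 were called lower and 1 higher. Of the origin recognition complex, Orc5 fell by 0.81 (adjusted p = 0.00146), Orc2 by 0.63 (adjusted p = 0.0393) and Orc3 by 0.41 (adjusted p = 0.00996). Orc4 was not called and stood at 70.0, 60.8 and 62.7 CPM in control and 69.1, 68.5 and 69.1 CPM in KO. Orc2 missed the threshold in 4 of 6 fits that omitted a library and when only library size was scaled.

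Among the small polymerase subunits, Pold3 fell by 0.80 (adjusted p = 0.0057), and the histone-fold subunits of polymerase epsilon, Pole3 (log2 fold change −0.13, adjusted p = 0.617) and Pole4 (−0.31, adjusted p = 0.11), were not called. The sign of Pole3 turned without control replicate 2 (log2 fold change 0.044), and Pole4 was called without control replicate 3 (−0.49, adjusted p = 0.0162). Pold4, the smallest subunit of polymerase delta, rose where its partners fell. It gave 38.5, 42.1 and 75.0 CPM in control and 86.0, 109.7 and 93.3 CPM in KO, a rise of 0.89 on the log2 scale (SE 0.241, adjusted p = 0.0155), with all KO libraries above all control libraries. Pold4 missed the threshold in 3 of 6 fits that omitted a library, and 21.7% of its 50-base stretches are shared, mainly with AC109138.7. Cdc7 and Dbf4, the kinase that fires origins and its activator, fell by 0.89 (adjusted p = 0.00891) and 0.63 (adjusted p = 0.0118), the latter call being lost without KO replicate 2.

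Of the 7 other enzymes of dNTP supply, 3 were called lower and 2 higher, against 22.9% and 23.2% of all tested genes. Dctd, the deaminase that makes dUMP for thymidylate synthesis, had the largest called change of the 48 genes and gave 20.6, 19.9 and 17.6 CPM in control and 7.97, 5.61 and 4.98 CPM in KO, a fall by 1.64 (SE 0.207, adjusted p = 0.000585). The 2 genes that rose were the mitochondrial deoxynucleoside kinases. Dguok gave 12.0, 12.5 and 14.7 CPM in control and 18, 24.5 and 21.5 CPM in KO and rose by 0.71 (SE 0.167, adjusted p = 0.00876), and Tk2 rose by 0.61 (adjusted p = 0.0487). Tk2 missed the threshold in 4 of 6 fits that omitted a library, and Dguok without control replicate 1. Rrm2b, the p53-inducible small subunit of ribonucleotide reductase, stood at 35.0, 36.3 and 42.5 CPM in control and 37.5, 38.6 and 34.9 CPM in KO and was not called (adjusted p = 0.836). Samhd1, which degrades dNTPs, gave 189, 213 and 369 CPM in control and 288, 335 and 348 CPM in KO. It was not called (log2 fold change 0.33, adjusted p = 0.273) but passed once replicate number was a block (adjusted p = 0.0497) and without control replicate 3 (0.63, adjusted p = 0.00718).

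Lists of other machines are given side by side, with no test of a difference between lists. The shares over all tested genes were 22.9% called lower and 23.2% called higher. In a list of 20 mitotic genes all 20 were called lower, with a median log2 fold change of −1.31, close to the −1.22 of the replication genes. Of 12 subunits of RNA polymerase II, 1 was called lower and 1, Polr2a, higher, with a median of −0.094. Polr2a, the largest subunit, rose from 519, 468 and 362 CPM in control to 1227, 1160.1 and 1366 CPM in KO (1.48 on the log2 scale, SE 0.161, adjusted p = 0.000339). Of 9 genes that replicate mitochondrial DNA, 4 were called lower and 1, Polg2, higher, with a median of −0.34. Polg2, the accessory subunit of the mitochondrial polymerase, rose by 0.63 (adjusted p = 0.0219), but was no longer called in 4 of the 6 fits that each omitted a library.

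**Figure D5:**
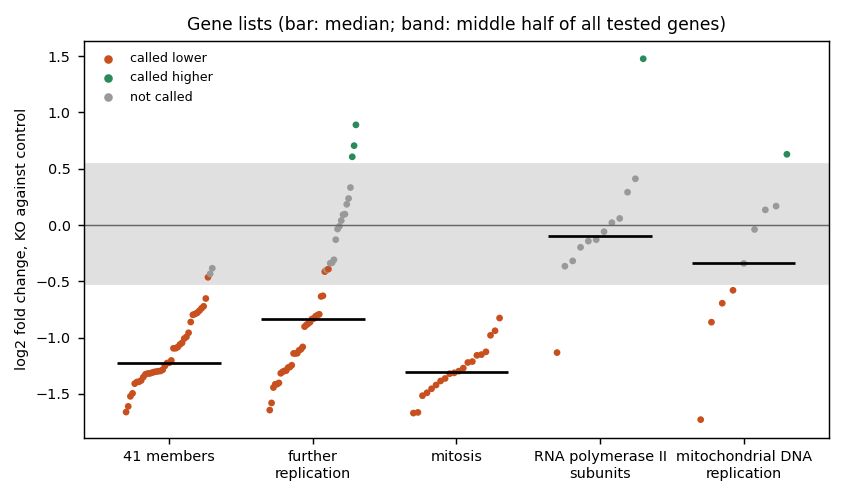
Log2 fold change (y axis, KO against control) of every gene in 5 lists (x axis): the 41 replication genes, 48 further replication genes, 20 mitotic genes, 12 RNA polymerase II subunits and 9 genes of mitochondrial DNA replication. Points are coloured by call, the bar is the median of the list (−1.22, −0.83, −1.31, −0.094 and −0.34 from left to right), and the band spans the quartiles of all tested genes.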

How the data were processed

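RNA of 6 libraries was analysed from 1 table of whole-number counts per gene symbol, as deposited by the authors. Per the submitters' processing notes, STAR, featureCounts and DESeq2 were used with the build mm10; versions, annotation and strand setting are not given in the sources used here. Columns were matched to samples by description and groups taken from titles. All value columns could be matched, and every line named a gene.

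KO was compared with control across all genes with edgeR 4.0.16 in R 4.3.3 (quasi-likelihood test, TMM factors, filterByExpr by group, no covariate), keeping 14268 genes with 99.9% of the counts. Adjusted p is after Benjamini and Hochberg, over all tested genes. SE is the absolute log2 fold change over the root of F. The test was tried on simulated data. Log2 CPM used a prior count of 2. Ratios of subunits were compared with two-sided exact permutation tests. Exon length, overlap and shared 50-base stretches came from GENCODE M21 (GRCm38, the same assembly as mm10), with 98.1% of symbols matched. Reads had no stated molecular identifiers; counting error is only part of the spread (biological coefficient of variation 0.212).

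Same-numbered libraries deviated together from their group means (correlations across genes of 0.27, 0.13 and 0.379), so the numbers were read as pairing them. Control replicate 2, however, correlated more with KO replicate 1 (0.204) than with KO replicate 2. The other libraries of unlike number gave −0.39 to −0.018. The pairing of replicate 2 is thus uncertain, and the replicates numbered 3 also share their sex. What the numbers mean is not stated in the labels. The members, lists and tests were chosen with earlier results of these data known. Genes were named by rule: Rtf1, all members, the missing subunits of their complexes, Cdc7, Dbf4, Rrm2b and Samhd1, the further genes called against the rest or changed most, and genes of the comparison lists called higher. The alternatives were other scalings, filters, DESeq2 1.42.0, the replicate block, replicates 1 and 2 alone and each library left out.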

Additional observations from a re-analysis of the deposited data

How the results depend on the processing

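None of the 41 replication genes changed sign in any of 14 alternatives, and 31 were called lower in each of them. The number called was 39 with DESeq2 size factors, with TMM factors from which the 50 most counted genes were left out, with no filter beyond any count, with a mean count of at least 10 and by the DESeq2 test, 37 with library size only, 40 with the replicate block, and between 31 and 41 with 1 library left out. The replicate block changed no other call among the named genes than those of Gins4 and Samhd1. Rrm2b, which was not called, turned sign with library size only (log2 fold change 0.054) and in replicates 1 and 2 alone (0.092), and ran from −0.15 to 0.0040 with 1 library left out, and Pole3 ran from −0.39 to 0.044. The change in the log2 ratio of Gins1 to Gins2 ran from −0.047 to 0.031 and that of Pole to Pole2 from −0.082 to 0.094 with 1 library left out, and the cause was not tested. The number of pairs without overlap was 18 with a prior count of 0.5 and ran from 19 to 26 with 1 library left out, where fewer libraries make an overlap less likely. Each member had at least 103 counts in every library, and each group had 3 libraries.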
